A study of Mus musculus with 10 samples.

Results

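The genes described here are 32 genes of glycolysis and the pentose phosphate pathway, out of 53465 genes counted in each library. They were taken from a list of pathway names, which was drawn up with earlier results of these data known. All 32 were found and passed the filter on low counts, along with 13182 genes in all. Glycolysis splits glucose into pyruvate in the cytosol with a small yield of ATP, and lactate dehydrogenase turns pyruvate into lactate and so returns the NAD that the pathway consumes. The pentose phosphate pathway branches off at glucose 6-phosphate: its oxidative arm makes NADPH, and its non-oxidative arm exchanges sugar phosphates between ribose 5-phosphate and the glycolytic intermediates. T cells raise glycolysis when they are activated, and the cytokine output of effector CD8 T cells is known to depend in part on glucose.

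CD8 T cells came from the spleens and peripheral lymph nodes of C57BL/6 mice carrying the OT-I transgene, a T cell receptor specific for an ovalbumin peptide. Cells of all groups were activated with that peptide (100 ng/ml) and IL-2 (100 U/ml) in 25 mM glucose for 3 days. They were then held in 1 mM glucose for 24 h (d5) or 120 h (d9). Acetate at 5 mM was present during the last day in the groups named d5 with acetate and d9 with acetate. Every group was restimulated with PMA and ionomycin for 4 h before poly(A) RNA was sequenced. The 4 groups are d5 (n = 2), d5 with acetate (n = 2), d9 (n = 3) and d9 with acetate (n = 3). The label days 5 and 9 do not add up from 3 days of activation and 1 or 5 days of restriction. Cells at d9 differ from d5 cells both in time at low glucose and in time in culture, which cannot be told apart. Cells kept in 25 mM glucose were not analysed here. No label says whether replicates were separate cultures or animals, so p-values measure the spread between these libraries.

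Libraries held 16588023 to 17971480 counts at d5 and 22966098 to 24659226 at d9. Depth thus also went with day, without overlap, and its part in the comparisons between days was not tested. The 6 CD8 T cell markers (Cd3e, Cd3d, Cd3g, Trac, Cd8a and Cd8b1) summed to 1663 to 2402 CPM (counts relative to library size, scaled by the trimmed mean of M values, TMM), as the label CD8 T cells requires. Of the CD4 T cell list, which summed to 117 to 169 CPM, Zbtb7b held 106 to 163 CPM, while Cd4 itself reached at most 1.70 CPM. The erythroid list reached at most 0.224 CPM. The NK cell list, carried by Klrb1c, summed to 1.23 to 1.88 CPM at d5, 5.32 to 6.05 at d5 with acetate, 9.05 to 13.8 at d9 and 18.2 to 25.9 at d9 with acetate. Ncr1, of the same list, reached at most 0.263 CPM. Klrb1c passed the test for acetate at d5 and averaged over both days and in both comparisons between days, and the part of such cells in the results was not tested. Ribosomal protein genes took 15.4% of the counts of d9 replicate 1 and 15.1% of d9 with acetate replicate 2, against 11.1% to 12.6% in the other d9 libraries and 10.8% to 14.0% in the d5 libraries. In bulk RNA, a smaller number of cells expressing a gene and less RNA per cell cannot be told apart.

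The 32 genes together took 1.17% to 1.65% of all counts in the d5 libraries and 1.56% to 2.28% in the d9 libraries. Per kilobase of exon, the highest mean level over all libraries was that of Aldoa, at 609 CPM per kb in d5 and 1221 in d9. Aldoa is the aldolase that splits fructose 1,6-bisphosphate. Gapdh, which oxidises glyceraldehyde 3-phosphate, stood at 583 and 989 CPM per kb. In d5 with acetate Gapdh was above Aldoa, at 671 against 585 CPM per kb. In CPM, without length scaling, the mean of Gapdh was above that of Aldoa in all 4 groups. Pgk1, Ldha, Pkm, Eno1, Tpi1 and Gpi1 followed, with means of 124 to 526 CPM per kb over the 4 groups. At the other end, Eno2, the neuronal enolase, held 0.134 to 0.265 CPM per kb, and Pfkfb4, Galm and Ldhb held 0.427 to 3.90. The 20 genes from hexokinase to lactate dehydrogenase summed to 10578 ± 1162 CPM in d5 and 12202 ± 1920 in d5 with acetate, against 18029 ± 2725 in d9 and 17822 ± 3562 in d9 with acetate (mean ± SD). The 7 pentose phosphate genes summed to 1018 ± 4.26, 1047 ± 36.5, 1255 ± 35.7 and 1149 ± 139 CPM in the same order. The 2 glucose carriers summed to 498 ± 55.2, 793 ± 206, 955 ± 290 and 1407 ± 534 CPM. The lowest d9 glycolytic sum, 13713 CPM in d9 with acetate replicate 1, lay just above the highest d5 sum, 13559.8 CPM in d5 with acetate replicate 2.

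Promoters are shown for 4 genes that passed the test between d5 and d9 in both acetate states: Aldoa and Gpi1, higher at d9, and Ldhb and Rpe, lower at d9. Each line gives the 250 bases before the annotated start, 5′ to 3′ on the gene's strand, from RefSeq (GRCm38.p6); Aldoa has 3 starts and the window shown is one that holds ACGTG. Capitals mark ACGTG, the core bound by HIF and by MYC-type factors, GGGCGG, the box bound by SP1-type factors, and TGANTCA, the AP-1 motif, on either strand.
Aldoa chr7:126799255-126799504 (minus strand): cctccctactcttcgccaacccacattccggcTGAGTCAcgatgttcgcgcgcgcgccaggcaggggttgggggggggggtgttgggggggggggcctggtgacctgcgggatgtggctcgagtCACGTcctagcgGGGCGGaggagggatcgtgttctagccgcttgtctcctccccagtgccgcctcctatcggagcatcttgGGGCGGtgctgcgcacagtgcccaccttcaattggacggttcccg
Gpi1 chr7:34230337-34230586 (minus strand): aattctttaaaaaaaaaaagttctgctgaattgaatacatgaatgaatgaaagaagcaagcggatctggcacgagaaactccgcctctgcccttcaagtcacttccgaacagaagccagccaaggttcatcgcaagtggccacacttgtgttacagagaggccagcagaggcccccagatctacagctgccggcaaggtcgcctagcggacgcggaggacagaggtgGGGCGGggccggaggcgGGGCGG
Ldhb chr6:142507958-142508207 (minus strand): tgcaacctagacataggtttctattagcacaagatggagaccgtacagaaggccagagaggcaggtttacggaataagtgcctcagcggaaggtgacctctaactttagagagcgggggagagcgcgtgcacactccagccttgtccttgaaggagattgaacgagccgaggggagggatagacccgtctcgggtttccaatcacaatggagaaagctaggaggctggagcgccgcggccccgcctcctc
Rpe chr1:66700581-66700830 (plus strand): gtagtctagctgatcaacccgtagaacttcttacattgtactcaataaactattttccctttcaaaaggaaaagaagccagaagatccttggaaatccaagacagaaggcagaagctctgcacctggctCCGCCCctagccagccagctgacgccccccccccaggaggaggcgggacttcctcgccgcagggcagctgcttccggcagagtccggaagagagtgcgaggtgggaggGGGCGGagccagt
Windows of 300 bases, which add 50 bases after the start, were found for 30 of the 32 genes, 43 windows in all. ACGTG was in 17 of these (39.5%), covering 14 genes, against 19.6% of all 32851 promoter windows and 25.8% of the 12090 windows of tested genes. CACGTG, which contains ACGTG, was in 3 windows (6.98%, against 9.98% of the windows of tested genes). GGGCGG was in 27 windows (62.8%, against 62.4%), and TGANTCA in 1, that of Aldoa shown here (2.33%, against 5.05%). Of the printed genes, Aldoa held TGANTCA beside ACGTG and GGGCGG, Gpi1 and Rpe held GGGCGG only, and Ldhb held none of them; a match is a run of letters and not a measured binding site.

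Between 24 h and 120 h of low glucose, the genes that rose lay at several steps from glucose uptake to pyruvate kinase and in the oxidative pentose phosphate arm. Those that fell were Ldhb, Galm and Rpe, and with acetate also Eno3. Without acetate, 10 of the 32 genes rose and 3 fell at d9 (edgeR quasi-likelihood test, Benjamini-Hochberg adjusted p under 0.05 over all tested genes), against 37.1% of all tested genes called, 15.9% higher and 21.2% lower. With acetate, 7 rose and 4 fell, against 41.6% of all tested genes, 18.5% higher and 23.1% lower. The share of the 32 genes called in either direction was thus near the background without acetate and below it with acetate, and more of those called rose than fell, the opposite of all tested genes. At an unadjusted p under 0.05 there were 19 genes without acetate, against 47% of all tested genes, and 17 with it, against 50.7%. The median log2 fold change of the 32 genes was 0.38 without acetate and 0.40 with it, against -0.01 for all tested genes in both. Hk2, Gpi1, Aldoa, Eno1 and Pgls rose, and Ldhb, Galm and Rpe fell, in both acetate states, which use separate libraries but share an estimate of the spread. By ranges, 19 genes had all d9 libraries above all d5 libraries and 4 had all below them without acetate, against 29.7% and 33.4% of all tested genes. With acetate the counts were 9 and 4, against 29.1% and 33.4%. Beside these results, Cd8a (log2 0.82), Cd3d (0.60), Cd3g (0.54) and Cd8b1 (0.34) of the CD8 T cell markers rose at d9 without acetate (adjusted p between 0.00105 and 0.0437), and Cd8b1 rose with it (0.41, adjusted p = 0.0169). Of the CD4 list, Cd4 rose without acetate (log2 2.18, from a mean of 0.282 to 1.31 CPM, adjusted p = 0.00166). Cd40lg, also of that list, fell (-2.03, from 10.5 to 2.54 CPM, adjusted p = 0.00142), and neither passed with acetate. Cd79b, a B cell gene, fell with acetate (-1.75, adjusted p = 0.00125). The part of these shifts in the results was not tested.

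**Figure D1:**
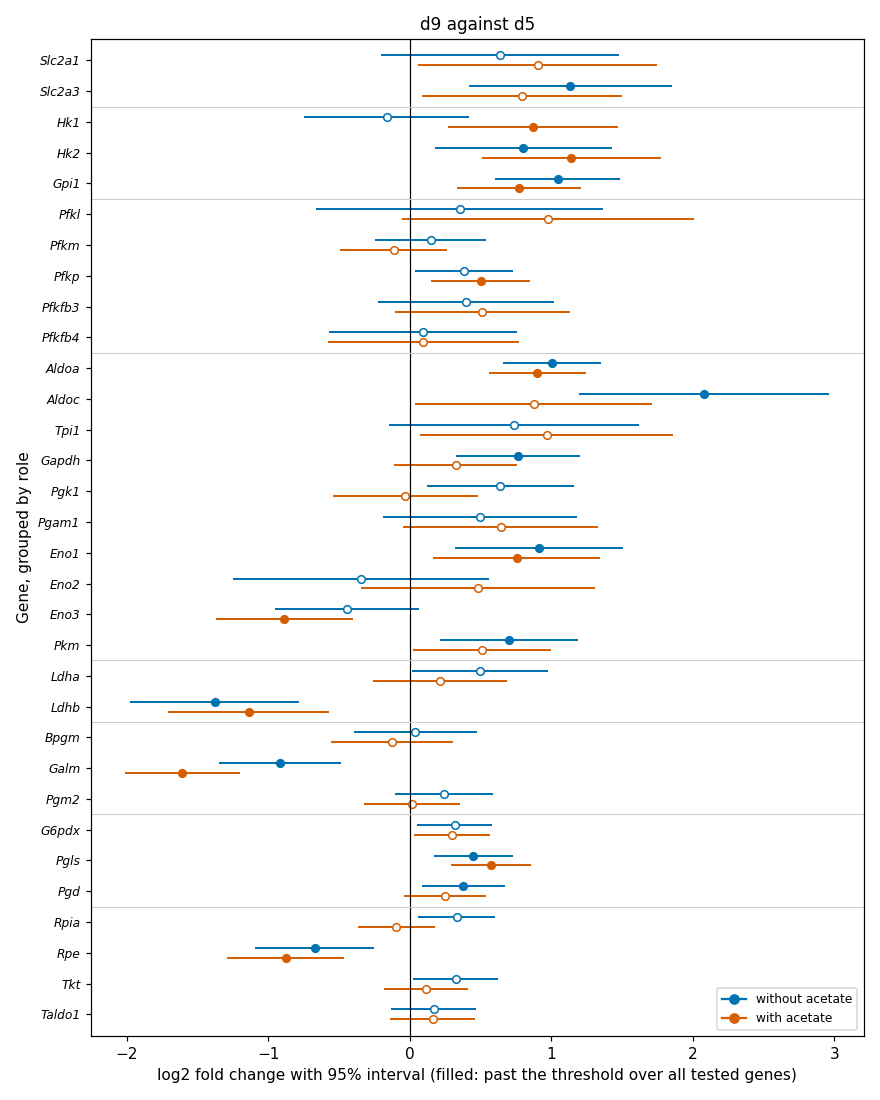
Log2 fold change of each of the 32 genes at d9 against d5 with its 95% interval, without and with acetate, genes grouped by role; filled points passed the adjusted threshold over all tested genes. Aldoa lies at 1.00 and 0.90, Galm at -0.92 and -1.61, and Aldoc, at 2.08 without acetate, has the largest value.

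The glucose carriers stand first in the pathway. Slc2a3, the high-affinity carrier GLUT3 (chromosome 6, 122727809 to 122801640), was measured at 280.4 and 285 CPM in the d5 libraries, 446 and 648 with acetate, 812, 586 and 462 in the d9 libraries, and 588, 982 and 1273 with acetate. Without acetate the d9 libraries all lay above the d5 libraries, and Slc2a3 rose 2.19-fold (log2 1.13 ± 0.32 SE, adjusted p = 0.0187). That call was lost without d5 replicate 1 (adjusted p = 0.103) or d5 replicate 2 (adjusted p = 0.0968), and the ranges overlapped with acetate, where the log2 difference was 0.79 ± 0.32 (adjusted p = 0.0669). Slc2a1, the carrier GLUT1, ranged from 179 to 252 CPM in d5 and from 231 to 455 in d9, and its difference did not pass (log2 0.64, adjusted p = 0.208). Both carriers were at their highest in d9 with acetate replicate 3, at 639.7 CPM for Slc2a1 and 1273 CPM for Slc2a3.

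**Figure D2:**
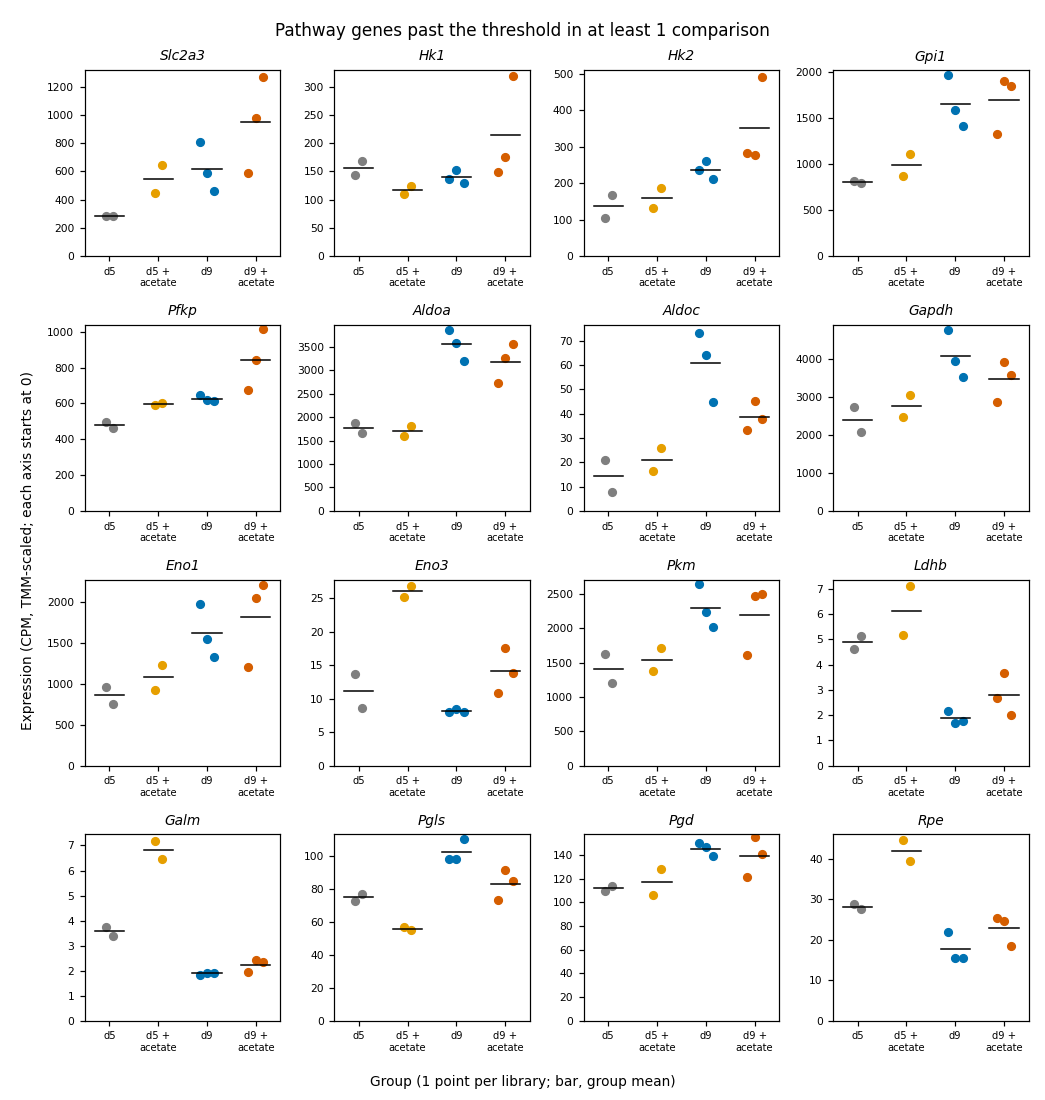
TMM-scaled CPM (linear axes from 0) of the 16 genes that passed the threshold in at least 1 comparison, 1 point per library in each of the 4 groups, with a bar at the group mean. The d9 points of Gpi1, Aldoa and Aldoc lie above all d5 points, those of Ldhb, Galm and Rpe lie below them, and the d5 points of Eno3 and Galm are higher with acetate.

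Hexokinases trap glucose in the cell as glucose 6-phosphate. Hk2, the inducible hexokinase (chromosome 6, 82725025 to 82774454), was measured at 105 and 166 CPM in the d5 libraries, 131 and 187 with acetate, 237, 261 and 213 in the d9 libraries, and 284, 278 and 493 with acetate. The d9 libraries lay above the d5 libraries in each state, and Hk2 rose 1.74-fold without acetate (log2 0.80 ± 0.28, adjusted p = 0.0438) and 2.21-fold with it (log2 1.14 ± 0.28, adjusted p = 0.00868). Without acetate the call was lost without d5 replicate 1 (0.51, adjusted p = 0.309) and without d9 replicate 1, 2 or 3 (adjusted p = 0.0677, 0.111 and 0.0600). With acetate it was lost without d5 with acetate replicate 1 (0.92, adjusted p = 0.0894). Hk1, the constitutive hexokinase (chromosome 10, 62268855 to 62379908), was measured at 144 and 169 CPM in d5, 111 and 124 with acetate, 137, 152 and 130.2 in d9, and 149, 176 and 320.4 with acetate. Hk1 rose in the comparison with acetate (log2 0.87 ± 0.27, adjusted p = 0.0240). Without acetate its libraries overlapped (-0.16, adjusted p = 0.659), and the difference of both comparisons did not pass (1.03, adjusted p = 0.527). The Hk1 call was lost without d5 with acetate replicate 1 (adjusted p = 0.137) or replicate 2 (adjusted p = 0.0812), and d9 with acetate replicate 3 stood far above the other libraries. Gpi1, the isomerase that makes fructose 6-phosphate and opens the path back from the pentose phosphate pathway (chromosome 7, 34201330 to 34230336), was measured at 810.2 and 791 CPM in d5, 871 and 1112 with acetate, 1965, 1582 and 1412 in d9, and 1327, 1897 and 1848 with acetate. Every d9 library lay above every d5 library, and Gpi1 rose 2.06-fold without acetate (log2 1.05 ± 0.20, adjusted p = 0.00222) and 1.70-fold with it (0.77 ± 0.20, adjusted p = 0.00993). The call with acetate was lost without d5 with acetate replicate 1 (0.61, adjusted p = 0.101).

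Phosphofructokinase commits the sugar to glycolysis, and PFKFB enzymes set the level of its activator fructose 2,6-bisphosphate. Of these 5 genes Pfkp alone passed, and with acetate only. Pfkp, the platelet-type subunit and the main one in these cells (chromosome 13, 6579768 to 6648777), was measured at 494 and 464 CPM in d5, 591 and 601 with acetate, 648, 617 and 611 in d9, and 675, 841 and 1012 with acetate. Its d9 libraries lay above the d5 libraries in both states. The log2 difference was 0.38 ± 0.15 without acetate (adjusted p = 0.0727) and 0.50 ± 0.15 with it (adjusted p = 0.0241). The call was lost without d5 with acetate replicate 1 (adjusted p = 0.117) or 2 (adjusted p = 0.100), and without d9 with acetate replicate 3 (0.35, adjusted p = 0.0766). Pfkl, the liver-type subunit, spread widely, from 69 to 144 CPM between the d5 libraries and from 115 to 318 CPM between those of d9 with acetate. Pfkm, the muscle-type subunit, Pfkfb3 and Pfkfb4 had log2 differences of -0.11 to 0.51 and overlapping libraries.

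In the lower part of the pathway, from aldolase to pyruvate kinase, 5 of 10 genes rose without acetate, against 15.9% of all tested genes. With acetate 2 rose and 1 fell, against 18.5% and 23.1% of all tested genes, so the share that rose was near the background. Aldoa (chromosome 7, 126795234 to 126800751) was at 1872 and 1672 CPM in the d5 libraries, 1595 and 1809 with acetate, 3864, 3593 and 3208 in the d9 libraries, and 2723, 3261 and 3556 with acetate. Every d9 library lay above every d5 library, and Aldoa rose 2.01-fold without acetate (log2 1.00 ± 0.15, adjusted p = 6.32e-04) and 1.87-fold with it (0.90 ± 0.15, adjusted p = 0.00106). Aldoc, the brain-type aldolase (chromosome 11, 78322968 to 78327781), was measured at 21.1 and 7.54 CPM in d5, 16.3 and 25.9 with acetate, 73.3, 63.9 and 44.8 in d9, and 33.4, 45.2 and 37.7 with acetate. It had the largest rise of the 32 genes without acetate, 4.23-fold (log2 2.08 ± 0.40, adjusted p = 0.00248), although its d5 libraries spread widely. With acetate the libraries again did not overlap but the difference of 0.88 ± 0.37 did not pass (adjusted p = 0.0839). The Aldoa and Aldoc calls without acetate, and that of Aldoa with it, held without any single library.

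Gapdh (chromosome 6, 125161715 to 125166467) was at 2737 and 2079 CPM in d5, 2486 and 3057 with acetate, 4783, 3962 and 3522 in d9, and 2887, 3928 and 3595 with acetate. It rose 1.70-fold without acetate (log2 0.76 ± 0.20, adjusted p = 0.0112), where the groups did not overlap. The call was lost without d5 replicate 2 (0.58, adjusted p = 0.121). With acetate the groups overlapped (0.32, adjusted p = 0.198). Gapdh has 87 near-identical annotated copies, 85 of them pseudogenes, whose summed level was 11.5 to 42.3 CPM, small beside that of Gapdh. Eno1, the main enolase (chromosome 4, 150236721 to 150248879), was measured at 963 and 752 CPM in d5, 924 and 1234 with acetate, 1967, 1552 and 1329 in d9, and 1209.9, 2052 and 2199 with acetate. Eno1 rose 1.88-fold without acetate (0.91 ± 0.27, adjusted p = 0.0205) and 1.69-fold with it (0.75 ± 0.26, adjusted p = 0.0409), where d9 with acetate replicate 1 overlapped d5. The first call was lost without d5 replicate 1 (adjusted p = 0.0562) or d5 replicate 2 (adjusted p = 0.161). The second was lost without d5 replicate 1 or 2, d5 with acetate replicate 1 or 2, d9 replicate 2, or d9 with acetate replicate 2 or 3 (adjusted p between 0.0506 and 0.241). Eno1 has 3 near-identical annotated copies, which summed to 1.98 to 5.07 CPM. Pkm, pyruvate kinase (chromosome 9, 59656368 to 59679375), was measured at 1620.4 and 1209.6 CPM in d5, 1378 and 1709 with acetate, 2640.1, 2244 and 2014 in d9, and 1619, 2468 and 2499 with acetate. Pkm rose 1.62-fold without acetate (0.70 ± 0.22, adjusted p = 0.0281), without overlap. The call was lost without d5 replicate 2 (adjusted p = 0.221), d9 replicate 1 (adjusted p = 0.0545) or d9 replicate 2 (adjusted p = 0.0562). With acetate the difference was 0.51 ± 0.22 (adjusted p = 0.0825).

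Eno3, the muscle enolase (chromosome 11, 70657202 to 70662513), stood opposite to Eno1. It was at 13.6 and 8.59 CPM in d5, 25.2 and 26.8 with acetate, 8.06, 8.47 and 8.05 in d9, and 10.8, 17.5 and 13.9 with acetate. All d9 libraries lay below those of d5 in each acetate state, and Eno3 fell 1.85-fold with acetate (log2 -0.89 ± 0.22, adjusted p = 0.00808). That call was lost without d5 with acetate replicate 2 (-0.83, adjusted p = 0.0512). Without acetate the difference was -0.44 ± 0.23 (adjusted p = 0.152). Tpi1, Pgk1, Pgam1 and Eno2 did not pass in either state. Of these Pgk1, which makes the first ATP of the lower pathway, was nearest without acetate (log2 0.64 ± 0.23, adjusted p = 0.0513) and stood at -0.03 with it (adjusted p = 0.919).

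Of the lactate dehydrogenases, the minor gene passed and the main one did not. Ldhb, the heart-type subunit (chromosome 6, 142490249 to 142507957), was measured at 4.63 and 5.14 CPM in the d5 libraries, 5.16 and 7.10 with acetate, 2.15, 1.69 and 1.78 in the d9 libraries, and 2.70, 3.66 and 2.00 with acetate. Every d9 library lay below every d5 library, and Ldhb fell 2.60-fold without acetate (log2 -1.38 ± 0.27, adjusted p = 0.00255) and 2.20-fold with it (-1.14 ± 0.26, adjusted p = 0.00517). The latter was lost without d5 with acetate replicate 2 (-0.88, adjusted p = 0.0654). Ldha, the muscle-type subunit and by far the more abundant, ranged from 1103 to 1536 CPM at d5 and from 1182 to 1957 CPM at d9. Its log2 differences of 0.49 and 0.21 did not pass (adjusted p = 0.0924 and 0.444).

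Of the side enzymes, Galm fell and Bpgm and Pgm2 did not pass. Galm, galactose mutarotase, which interconverts the forms of free hexoses (chromosome 17, 80127471 to 80185101), was measured at 3.75 and 3.39 CPM in the d5 libraries, 7.17 and 6.47 with acetate, 1.84, 1.90 and 1.91 in the d9 libraries, and 1.94, 2.43 and 2.34 with acetate. The groups did not overlap in either state, and Galm fell 1.89-fold without acetate (log2 -0.92 ± 0.19, adjusted p = 0.00387) and 3.05-fold with it (-1.61 ± 0.18, adjusted p = 9.66e-05). Both calls held without any single library. Bpgm, which makes 2,3-bisphosphoglycerate, stayed between 9.21 and 14.2 CPM in all 10 libraries, and Pgm2, a phosphopentomutase, between 21.4 and 30.0.

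In the pentose phosphate pathway 2 of 3 genes of the oxidative arm rose at d9 without acetate and 1 with it, and 1 of 4 genes of the non-oxidative arm fell in both states. Of all tested genes 15.9% rose and 21.2% fell without acetate, and 18.5% and 23.1% with it. With so few genes, these counts say nothing about an arm as such. Pgls, the lactonase of the oxidative arm (chromosome 8, 71592176 to 71601092), was measured at 72.7 and 77.1 CPM in d5, 57.1 and 54.8 with acetate, 98.1, 98.3 and 110.3 in d9, and 73.3, 91.6 and 84.8 with acetate. It rose 1.36-fold without acetate (log2 0.45 ± 0.12, adjusted p = 0.0153) and 1.49-fold with it (0.57 ± 0.12, adjusted p = 0.00413), without overlap in either state. The call without acetate was lost without d5 replicate 1 (adjusted p = 0.118), d5 replicate 2 (adjusted p = 0.0627) or d9 replicate 3 (adjusted p = 0.0566). Pgd, which makes NADPH and ribulose 5-phosphate (chromosome 4, 149149991 to 149166771), was measured at 109.6 and 114 CPM in d5, 107 and 128 with acetate, 150.3, 147 and 139 in d9, and 122, 155 and 141 with acetate. Pgd rose 1.3-fold without acetate (0.38 ± 0.13, adjusted p = 0.0402). That call was lost without any of d5 replicates 1 and 2, d9 replicates 1 to 3 and d9 with acetate replicate 3 (adjusted p between 0.0529 and 0.195). With acetate the libraries overlapped (0.25, adjusted p = 0.142). G6pdx, the first and rate-limiting enzyme of the arm, had log2 differences of 0.32 and 0.30 that did not pass (adjusted p = 0.0551 and 0.0627), with no overlap between d5 and d9 libraries within an acetate state.

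Rpe, the epimerase that turns ribulose 5-phosphate into xylulose 5-phosphate (chromosome 1, 66700831 to 66719805), was measured at 28.9 and 27.6 CPM in d5, 44.6 and 39.5 with acetate, 22.0, 15.6 and 15.5 in d9, and 25.5, 24.7 and 18.5 with acetate. All d9 libraries lay below all d5 libraries, and Rpe fell 1.59-fold without acetate (log2 -0.67 ± 0.19, adjusted p = 0.0167) and 1.84-fold with it (-0.88 ± 0.18, adjusted p = 0.00368). Without acetate the call was lost without d5 replicate 1 (adjusted p = 0.0926), d5 replicate 2 (adjusted p = 0.0729), d9 replicate 2 (adjusted p = 0.0559) or d9 replicate 3 (adjusted p = 0.0600). Rpia, the isomerase that makes ribose 5-phosphate, Tkt, transketolase, and Taldo1, transaldolase, had differences of -0.09 to 0.33 that did not pass. Exons of Rpe overlap Kansl1l on the other strand over 17.9% of their length and those of Pgls overlap Fam129c on the same strand over 20.6%. Those of Pkm overlap Gm49759 (mean 37.1 CPM) on the same strand over 15.3%. Reads in these parts may be shared. Stretches of at least 200 bases in 15 other annotated genes match Rpia at 95% identity or more. These genes summed to 73.6 to 113 CPM, against 62.3 to 88.7 for Rpia, and sharing of reads was not tested. Whether counting used strand is not stated in the labels.

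With trends on transcript length and GC content removed from each library, 6 genes passed upwards and 3 downwards without acetate, and 2 and 4 with it. The median of the 32 genes was then 0.21 and 0.07, against -0.07 for all tested genes in both. Under that fit Pgls stood at 0.09 and 0.13 and Rpe at -0.20 and -0.17, and none of these 4 values passed (adjusted p between 0.185 and 0.585). The calls of Hk2, Eno1, Pkm and Pgd without acetate and of Hk1, Gpi1, Pfkp and Eno1 with it were lost as well (adjusted p between 0.0882 and 0.431). Without both libraries high in ribosomal protein counts, Slc2a3 (adjusted p = 0.138), Hk2 (0.146), Eno1 (0.0948) and Pkm (0.0689) were lost without acetate and Hk1 (0.0638) and Eno1 (0.118) with it. With no low-count filter, Slc2a3, Hk2 and Eno1 were lost without acetate and Hk1 and Eno1 with it. With the ribosomal share as covariate, Slc2a3, Hk2, Eno1 and Pkm were lost without acetate and Hk1 with it. Under scaling by library size alone, Hk2 and Pgd were lost without acetate and Eno1 with it. With only the libraries compared, Pfkp and Eno1 were lost with acetate. The part of length, GC content and ribosomal share in the results was not tested further. Counts of called genes ran from 6 (without d5 replicate 2) to 18 (without d9 with acetate replicate 2) without acetate, with 8 without d5 replicate 1. With acetate the counts were 6 without either d5 with acetate library and 18 without d9 with acetate replicate 1. Shares of all tested genes called in these fits, including that with trends removed, are not given here. Changes in these counts can therefore not be read as particular to the 32 genes. Scaling by library size alone put the median of all tested genes at -0.11 in both day comparisons, and that of the 32 genes at 0.28 and 0.30.

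Acetate during the last day of low glucose went with higher Eno3 and Galm. At d5, 2 of the 32 genes rose with acetate (edgeR, adjusted p under 0.05), against 1.52% of all tested genes called, 0.66% higher. At an unadjusted p under 0.05 there were 7, against 19.8% of all tested genes. At d9 none passed (edgeR; 9 at an unadjusted p under 0.05, 1 with DESeq2 and 0 with limma-voom), against 0.0303% of all tested genes called and 15.4% at an unadjusted p under 0.05. Averaged over both days, 2 rose and 1 fell, against 5.89% of all tested genes, 3.35% higher and 2.54% lower. At an unadjusted p under 0.05 there were 11, against 25.2%. The median log2 difference of the 32 genes was 0.26 at d5, 0.13 at d9 and 0.20 averaged, against 0.01, 0.01 and 0.00 for all tested genes. By ranges, 15 genes at d5 had both acetate libraries above both others and 3 below, against 29.8% and 29.2% of all tested genes. At d9 the counts were 5 and 2, against 9.9% and 8.79%. These comparisons share the d5 and d9 libraries with the comparisons between days.

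**Figure D3:**
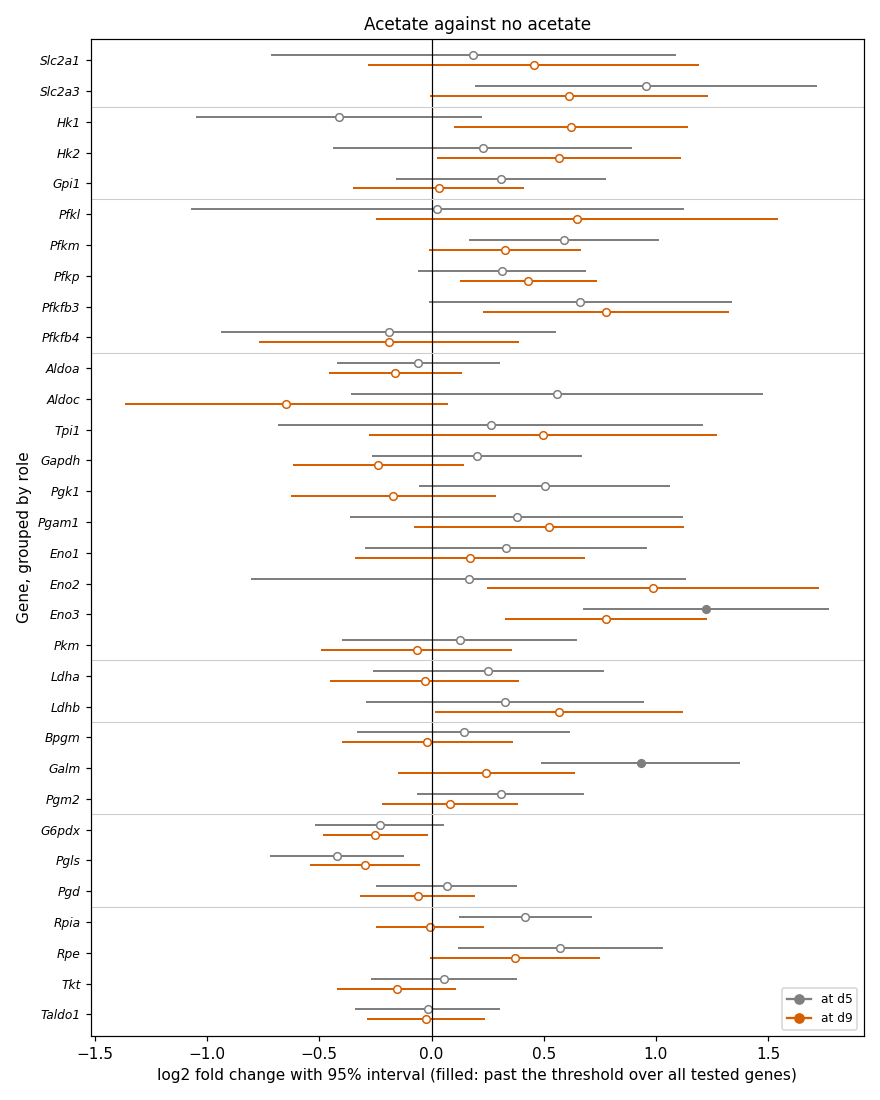
Log2 difference of each of the 32 genes with acetate against without it, at d5 and at d9, with 95% intervals; filled points passed the adjusted threshold over all tested genes. Only Eno3 at 1.22 and Galm at 0.93, both at d5, are filled, and the intervals of most other genes cross 0.

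Eno3, whose libraries are given above, rose 2.34-fold with acetate at d5 (log2 1.22 ± 0.25, adjusted p = 0.0409), and its d9 libraries with acetate also lay above those without (0.78 ± 0.20, adjusted p = 0.145). Averaged over the days it rose 2.00-fold (1.00 ± 0.16, adjusted p = 0.0117). Galm rose 1.91-fold at d5 (0.93 ± 0.20, adjusted p = 0.0498) and 1.5-fold on average (0.59 ± 0.13, adjusted p = 0.0330). Its libraries at d9 did not overlap either (0.24 ± 0.18, adjusted p = 0.553). Pgls fell 1.28-fold on average (-0.36 ± 0.09, adjusted p = 0.0381), with both acetate libraries below both others at d5 (-0.42, adjusted p = 0.133) and all 3 below at d9 (-0.30, adjusted p = 0.237). This call was lost with length and GC trends removed (-0.28, adjusted p = 0.0721). G6pdx had the same arrangement of libraries on both days, at -0.23 and -0.25, and its average of -0.24 ± 0.08 did not pass (adjusted p = 0.109).

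Both calls at d5 were lost without any 1 of the 4 d5 libraries (adjusted p between 0.097 and 0.28 for Eno3 and between 0.212 and 0.298 for Galm). They were also lost without d9 replicate 2, d9 replicate 3 or d9 with acetate replicate 3, which enter only through the spread (adjusted p between 0.0579 and 0.091). The average for Eno3 was lost without d5 replicate 2 (0.85, adjusted p = 0.0647) or d5 with acetate replicate 2 (0.98, adjusted p = 0.0523). Galm's average was lost without any d5 library, d9 replicate 2, d9 replicate 3 or d9 with acetate replicate 3 (adjusted p between 0.0617 and 0.129). That of Pgls was lost without these or d9 with acetate replicate 1 (adjusted p between 0.0531 and 0.151). Without d9 replicate 1, which is high in ribosomal protein counts, 8 of the 32 genes passed on average, and without d9 with acetate replicate 1, 6 did. Without d5 replicate 2 or d5 with acetate replicate 2 none did (edgeR). Without d5 replicate 1, d5 with acetate replicate 1, d9 replicate 2 or d9 replicate 3 only 1 did. These counts too stand without the shares of all tested genes called in the same fits. Beside these calls, Cd8a rose with acetate at d5 (log2 0.75, adjusted p = 0.0385) and on average (0.48, adjusted p = 0.0218). Cd68, a macrophage gene, was lower with acetate at d5 (4.48 against 10.3 CPM, adjusted p = 0.0228) and on average (log2 -0.84, adjusted p = 0.00943). At d5 Cd79b, was higher (3.29 against 1.05 CPM, adjusted p = 0.0499). Their lists of 5 markers each summed to 4.68 to 6.45 against 9.43 to 12.4 CPM and to 3.14 to 4.58 against 1.16 to 1.52 CPM. The part of other cells in the results was not tested.

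The genes nearest the threshold for acetate averaged over both days were Pfkm (log2 0.46 ± 0.12, adjusted p = 0.0514), Pfkfb3 (0.72 ± 0.20, adjusted p = 0.0559) and Rpe (0.47 ± 0.13, adjusted p = 0.0625). They were followed by Slc2a3 (0.78 ± 0.22, adjusted p = 0.0628) and Pfkp (0.37 ± 0.11, adjusted p = 0.0674). They are described because their values missed the threshold by the least, and were chosen after their values were seen. Pfkfb3, the kinase-dominant PFKFB enzyme, was at 36.3 and 45.2 CPM in d5, 59.0 and 69.9 with acetate, 63.2, 54.2 and 43.8 in d9, and 57.2, 93.3 and 125 with acetate. The groups were apart at d5 and overlapped at d9. The abundant enzymes of the lower pathway had intervals that crossed 0 on both days. Aldoa differed by -0.06 (95% interval -0.42 to 0.30) at d5 and -0.16 (-0.45 to 0.13) at d9. Gapdh differed by 0.20 (-0.26 to 0.67) and -0.24 (-0.61 to 0.14). Pkm differed by 0.13 (-0.39 to 0.64) and -0.07 (-0.49 to 0.36), and Ldha by 0.25 (-0.26 to 0.76) and -0.03 (-0.45 to 0.39).

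Whether acetate acted differently on the 2 days was tested as the difference of the differences. None of the 32 genes passed (edgeR; 4 at an unadjusted p under 0.05, 0 with DESeq2 and 0 with limma-voom), nor did any of all tested genes (0%; 7.7% at an unadjusted p under 0.05). The 4 genes were Hk1 (log2 1.03 ± 0.37), Rpia (-0.42 ± 0.17), Galm (-0.69 ± 0.27) and Aldoc (-1.20 ± 0.52), with adjusted p between 0.527 and 0.632. Galm passed for acetate at d5 and not at d9, and a difference between the days is not shown.

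Balances between isozymes of the same step were compared within each library as ratios of length-scaled counts, which do not depend on the scaling between libraries. Of 8 ratios tested for day and for acetate, 16 tests in all, 4 passed for day and 2 for acetate (exact permutation test, two-sided, stratified, Benjamini-Hochberg adjusted over the 16 tests). Hk2 made up 54.8% ± 5.20 (SD, n = 2) of hexokinase in d5, 65.6% ± 3.78 (n = 2) with acetate, 70.7% ± 0.630 (n = 3) in d9 and 70.4% ± 2.36 (n = 3) with acetate. The log2 ratio of Hk2 to Hk1 was 0.66 higher at d9, with all d9 libraries above the d5 libraries of the same acetate state (exact permutation p = 0.01, adjusted 0.04). After length scaling Hk2 was the larger part of Hk1 and Hk2 together in every library, between 51.1% and 73.1%. The scaling used the length of all annotated exons of a gene, which may differ from that of the transcripts expressed. In CPM, without length scaling, Hk1 stood above Hk2 in both d5 libraries (144 against 105 and 169 against 166).

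Of the 8 ratios, those of enolase and lactate dehydrogenase had the largest differences between days. Eno3 made up 3.80% ± 0.554 of enolase in d5, 7.03% ± 1.04 with acetate, 1.58% ± 0.301 in d9 and 2.39% ± 0.421 with acetate. The log2 ratio of Eno1 to Eno3 was 1.47 higher at d9 (exact permutation p = 0.01, adjusted 0.04). With acetate it differed by -0.77 (log2, exact permutation p = 0.0167, adjusted 0.0444). There was no overlap in any of the 4 underlying comparisons. Ldhb made up 0.887% ± 0.121 of lactate dehydrogenase in d5, 0.925% ± 0.0571 with acetate, 0.243% ± 0.0174 in d9 and 0.376% ± 0.112 with acetate. The log2 ratio of Ldha to Ldhb was 1.61 higher at d9 (exact permutation p = 0.01, adjusted 0.04). Ldha held 99.0% to 99.8% of lactate dehydrogenase in every library, and Ldhb was present at a few CPM.

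Among phosphofructokinases, Pfkp made up 58.9% to 74.5% over the libraries and Pfkm 2.84% to 6.10%. The log2 ratio of Pfkm to Pfkp was lower at d9, by -0.42 (exact permutation p = 0.01, adjusted 0.04), without overlap in either acetate state. The ratio of Pfkl to Pfkp overlapped throughout (adjusted 0.56 for day). Pfkfb4 made up 8.42% ± 1.65 of Pfkfb3 and Pfkfb4 together in d5, 4.76% ± 0.173 with acetate, 6.78% ± 0.629 in d9 and 3.96% ± 1.56 with acetate. Pfkfb1 and Pfkfb2, with group means of 2.00 to 4.94 and 2.35 to 2.72 CPM, were left out of this share. The log2 ratio of Pfkfb3 to Pfkfb4 was 0.89 higher with acetate, without overlap on either day (exact permutation p = 0.0167, adjusted 0.0444). After length scaling Slc2a1 made up 60.8% ± 5.54 of both carriers in d5 and 48.1% ± 0.0510 with acetate. In CPM, without length scaling, Slc2a3 stood above Slc2a1 in every library. The ratio of Slc2a1 to Slc2a3 did not pass for acetate (-0.46, exact permutation p = 0.0333, adjusted 0.0762). Aldoa made up 98.3% to 99.6% of aldolase. The smallest two-sided p this design allows is 0.01 for day and 0.0167 for acetate, and all 6 results sit at that limit. A p of 0.0167 passes the adjustment only if 6 of the 16 tests reach it or a lower value. The acetate results therefore passed only together with the day results. With 1 library left out, the smallest p is 0.025 for day without a d5 library and 0.0167 otherwise, which passes the adjustment only if 9 or 6 of the 16 tests reach it. None of the 6 results passed in such runs (smallest adjusted values between 0.0533 and 0.107), which therefore says nothing about their stability. Each kept its direction.

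**Figure D4:**
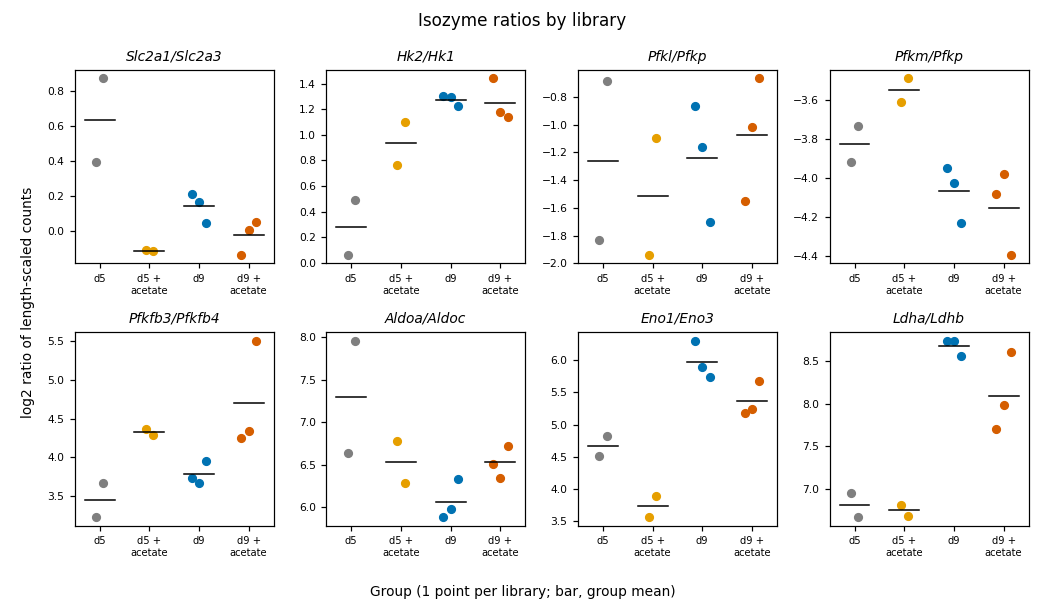
Log2 ratio of length-scaled counts of isozyme pairs, 1 point per library in each of the 4 groups, with a bar at the group mean. The d9 points of Hk2/Hk1, Eno1/Eno3 and Ldha/Ldhb lie above the d5 points of the same acetate state, and Pfkfb3/Pfkfb4 lies higher with acetate on both days.

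Within d9 the median ratio of the highest to the lowest library was 1.3 for the 32 genes and 1.31 for all tested genes, and within d9 with acetate it was 1.46 and 1.37. Over all 6 d9 libraries it was 1.66 and 1.59. These medians lie near each other, but the tested genes were not matched to the 32 genes for expression level, on which such ratios depend. The highest value was in d9 replicate 1 for 10 genes, in d9 with acetate replicate 3 for 10 and in d9 with acetate replicate 2 for 8. The lowest was in d9 replicate 3 for 13 and in d9 with acetate replicate 1 for 12. For all tested genes each of these libraries held 15.1% to 20.8% of the highest and 16% to 21.4% of the lowest values. Of the d5 libraries, d5 with acetate replicate 2 held the highest value of 22 genes. The share of all tested genes highest in that library was not computed, so this count cannot be read as particular to the 32 genes. Gpi1 was at 1327 CPM in d9 with acetate replicate 1 and at 1897 and 1848 CPM in replicates 2 and 3, and Tpi1, the triose phosphate isomerase, at 457, 1064 and 1120.0 CPM. Neighbours of Tpi1 on chromosome 6 lie close by, Eno2 at 40.9 kb and Gapdh at 347 kb, and 8 of the 32 genes are on that chromosome.

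**Figure D5:**
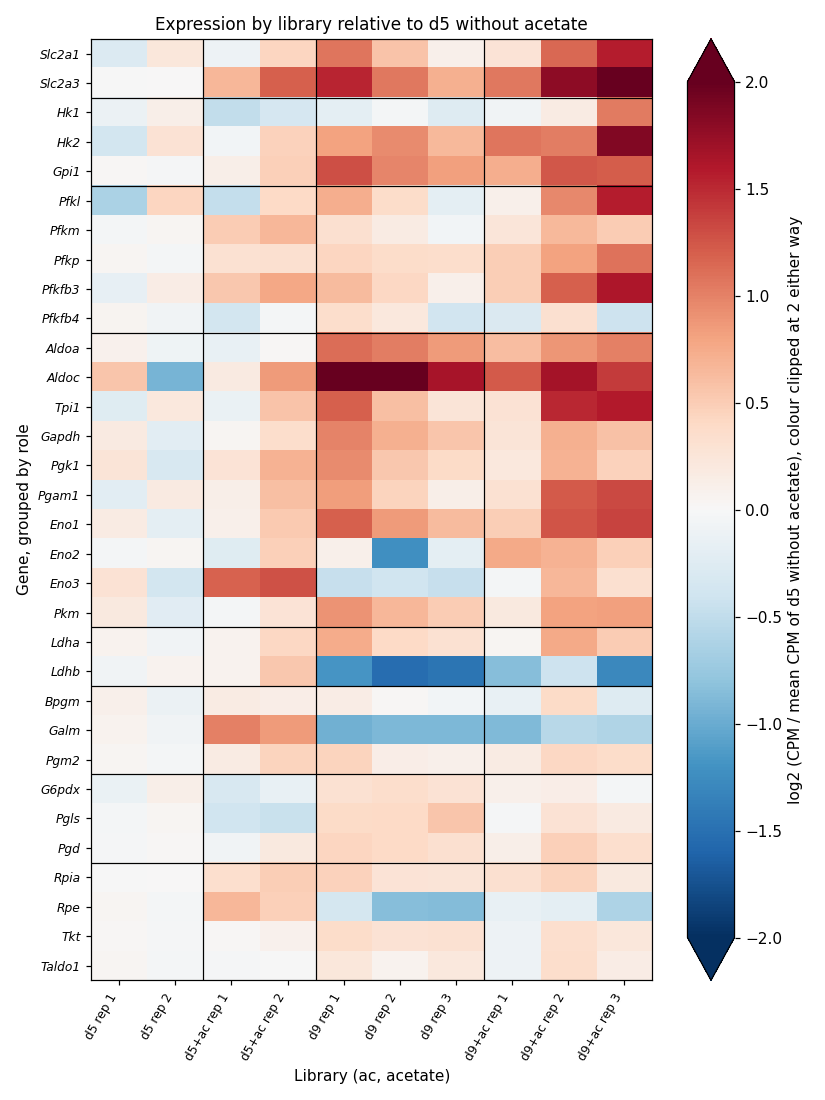
Log2 ratio of the CPM of each of the 32 genes in each of the 10 libraries to its mean CPM in d5 without acetate, colour clipped at 2 either way, with lines between the 4 groups. Aldoa and Gpi1 are high across all 6 d9 columns, Galm and Ldhb are low in them, and Hk1 stands out in d9 with acetate replicate 3 (320.4 CPM, against 149 in replicate 1).

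Genes next to the pathway were described from 6 further lists. Their counts stand against 15.9% of all tested genes higher and 21.2% lower at d9 without acetate, and 18.5% and 23.1% with it. With so few genes a list, shares near these, such as those of the glycogen, pyruvate fate and branch lists, say nothing about the lists as such. Of 12 tested regulators, 3 rose at d9 without acetate. They were Txnip, which limits glucose uptake (log2 1.00, adjusted p = 0.0309), Egln3, an oxygen-sensing prolyl hydroxylase (2.07, adjusted p = 0.0335), and Mlx, the partner of glucose-sensing factors (0.45, adjusted p = 0.0365). With acetate 5 rose, led by Ppargc1b (1.66, adjusted p = 0.00621), Mlxip (1.34, adjusted p = 0.00873), Myc (1.49, adjusted p = 0.00929) and Egln1 (1.31, adjusted p = 0.0174). The medians of the list were 0.53 and 0.55, against -0.01 for all tested genes in both. The glycogen and UDP-sugar list had 3 of 12 genes rising and 3 falling without acetate. Gys1, glycogen synthase, rose (1.13, adjusted p = 0.00153) and so did Pygl, a glycogen phosphorylase (1.85, adjusted p = 0.0134). Ugdh and Ugp2, which handle UDP-glucose, fell (-0.62, adjusted p = 0.00579, and -0.63, adjusted p = 0.00937). With acetate 1 rose and 3 fell, with Gys1 at 1.31 (adjusted p = 5.85e-04), Ugp2 at -1.26 (adjusted p = 1.57e-04), Ugdh at -1.01 (adjusted p = 3.07e-04) and Pygm, muscle glycogen phosphorylase, at -0.86 (adjusted p = 0.0363).

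Of 18 tested genes of pyruvate fate, 2 rose and 2 fell at d9 without acetate. Bsg, the chaperone of lactate transporters, rose (0.91, adjusted p = 0.00563), as did Me1, malic enzyme (1.26, adjusted p = 0.0459). Dld, a subunit of pyruvate dehydrogenase, and Pcx, pyruvate carboxylase, fell (-0.64, adjusted p = 0.0305, and -0.64, adjusted p = 0.0338). With acetate 2 rose and 4 fell, led by Dld (-1.30, adjusted p = 6.01e-04), Pdp2 (0.59, adjusted p = 0.00858), Pdp1 (-0.57, adjusted p = 0.0159) and Me1 (1.69, adjusted p = 0.0237). Of 12 branch genes 2 fell without acetate, and 1 rose and 3 fell with it. G6pc3, a glucose 6-phosphatase, fell in both (-0.53, adjusted p = 0.00862, and -0.55, adjusted p = 0.00667). Prps2, which makes PRPP from ribose 5-phosphate, also fell in both (-0.54, adjusted p = 0.0132, and -0.98, adjusted p = 3.98e-04). In the serine branch Phgdh, its first enzyme, rose without acetate (0.58, adjusted p = 0.00949) and Shmt1 fell in both states (-0.57, adjusted p = 0.0287, and -0.60, adjusted p = 0.0203). Of 10 further isozymes tested, Slc2a8 fell without acetate (-1.23, adjusted p = 0.00646) and Pfkfb1 in both states (-0.83, adjusted p = 0.0162, and -1.01, adjusted p = 0.0065). For acetate averaged over both days, Prps2 (0.44, adjusted p = 0.0351), Dld (0.62, adjusted p = 0.0361) and Slc16a1, the monocarboxylate carrier MCT1 (0.46, adjusted p = 0.0389), rose.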

How the data were processed

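Counts per gene were deposited for each of 10 libraries as whole-number read counts without normalization; per the submitters' processing notes the tools were STAR, featureCounts, deepTools and DESeq2 on the GRCm38 build, and their settings, including strand, were not given in the sources used here. Per the labels' protocols, libraries were made with a stranded poly(A) kit. Of 53465 gene identifiers, 53360 matched the GENCODE annotation of GRCm38, and the other 105 took up to 0.00689% of the counts in a library. All 32 members were found by symbol; Aldoa has a second identifier at 0.0843 to 0.643 CPM, which was not used.

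Counts were fitted with edgeR 4.0.16 (R 4.3.3) under TMM scaling, edgeR's low-count filter (13182 genes kept) and the robust quasi-likelihood fit with 4 group means, and 6 contrasts were tested with Benjamini-Hochberg adjustment over all genes kept and a threshold of 0.05. All 10 libraries shared an estimate of the spread, with 6 residual degrees of freedom and a biological coefficient of variation of 0.161. Standard errors (SE) were worked back from the log2 fold change and the F statistic of each test. The 95% intervals were built on these. Libraries of 16588023 to 24659226 counts make 1 count worth 0.0421 to 0.0584 CPM, and the lowest member, Eno2, had at least 8 counts per library. Isozyme ratios used length-scaled counts of genes with at least 10 counts in every library, which left out Eno1 to Eno2, and exact permutation within strata. The fit was also run on simulated counts of independent genes, and no result here rests on that run. Values in every library are printed for members past the threshold in at least 1 contrast, up to 20, and up to 4 genes by smallest p for each neighbouring list and comparison. Alternatives were DESeq2 1.42.0 scaling and test, limma 3.58.1 voom, library size alone, no filter, only the libraries compared, a replicate block, a ribosomal share covariate from 79 genes, length and GC trends removed by splines of 5 degrees of freedom, and leaving out libraries. The members and lists were chosen with earlier results of these data known.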

Additional observations from a re-analysis of the deposited data

How the results depend on the processing

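No called value of a member or isozyme ratio reversed: of 649 values of the 35 calls under the alternatives, 463 stayed past the threshold and 186 did not. For acetate at d5 the number of members called, 2 as reported, was 1 with library size only, 1 with no low-count filter, 8 with only the libraries compared, 4 with the ribosomal share as covariate, 6 without both libraries high in ribosomal protein counts, and 0 to 2 with 1 library left out. For acetate at d9, 0 as reported, it was 1 with no filter, 1 with the DESeq2 Wald test, 1 with the ribosomal share as covariate, and 0 with any 1 library left out. For acetate averaged over both days, 3 as reported, it was 5 with no filter, 8 with DESeq2, 8 with the ribosomal covariate, 6 without both libraries high in ribosomal protein counts, and 0 to 8 with 1 library left out. For d9 against d5 without acetate, 13 as reported, leaving out 1 library gave 6 to 18; with acetate, 11 as reported, it gave 6 to 18, and removing length and GC trends gave 6. The difference of acetate effects stayed at 0 with any 1 library left out. With the median in place of the mean, 0 of 4 day ratios and 0 of 2 acetate ratios passed, and leaving out 1 library gave 0 for both, in designs whose smallest p passes only if 6 or 9 of the 16 tests reach it. The cause of these changes was not tested.

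Replicate numbers were not taken to pair the libraries: same-numbered libraries with and without acetate had deviations that correlated at 0.03 at d5 and at -0.14, -0.39 and 0.33 at d9. Within d9, not every library without acetate correlated best with the acetate library of its own number. Across days only 2 numbers are shared in each comparison. There the correlations were 0.163 and 0.113 without acetate and 0.163 and 0.221 with it, and libraries of unlike number were not compared. With the replicate block, members called were 0 for acetate at d5, 0 at d9, 2 averaged, 9 for d9 against d5 without acetate and 8 with it. The shares of all tested genes called with that block are not given here, so these counts cannot be read as particular to the members. The calls lost between days were Hk2, Eno1, Pkm and Pgd without acetate and Hk1, Pfkp and Eno1 with it (adjusted p between 0.0509 and 0.1). The calls of Galm and Pgls for acetate averaged over both days were lost as well. Groups of 2 and 3 libraries limit what these comparisons can show, more than depth does for the abundant members; Eno2, with as few as 8 counts, is limited by depth.

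The number of all tested genes called also moved: for acetate at d5 from 201 to 1701 with only the libraries compared and 2162 without both libraries high in ribosomal protein counts, and for acetate at d9 from 4 to 337 with DESeq2 and 213 without both libraries. Changes in the counts of members called can therefore not be read as particular to the members.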
